A study of Rattus norvegicus with 12 samples.

Results

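*Ccl2* (ENSRNOG00000007159) and *Ccl7* (ENSRNOG00000000239) are 2 of the 17941 genes counted in cultured astrocytes (ASTRs) of the adult rat brain, and were chosen by name. Their transcripts were compared between 6 independent cultures of gmASTRs, from the cerebral cortex, and 6 of wmASTRs, from the other brain regions, which hold white matter tracts such as the corpus callosum but also hippocampus, thalamus and basal ganglia. Cells came from young adult female Wistar rats, whose meninges were taken off the cortex and whose amygdala was discarded, and each animal gave both kinds of culture. Cells grew for 20 days in medium with serum, with at least 1 passage and without a shake-off step, and no treatment is given for them. The paper states that the wmASTR cultures also hold ASTRs of grey matter, and that ASTRs of white matter make up most of them. The comparison addresses whether ASTRs of both origins differ in the signals that they can send to other cells.

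Both genes encode small secreted proteins of the CC chemokine family. CCL2, also known as MCP-1, and CCL7, also known as MCP-3, attract monocytes and other leukocytes, mainly through the receptor CCR2, while CCL7 also acts on CCR1 and CCR3. In the brain they are made by reactive ASTRs, microglia and vascular cells, and inflammatory signals that act through NF-kappaB and AP-1 are known to switch on their transcription. Chemokines bind to heparan sulfate of the extracellular matrix (ECM), which holds them near the cell that made them.

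In the RefSeq annotation of assembly GRCr8, *Ccl2* and *Ccl7* are direct neighbours on chromosome 10, followed by *Ccl11* and *Ccl12*. The sequence table holds the start region of *Ccl7* and not that of *Ccl2*. The 250 bases before the start of *Ccl7* (chr10:67513845-67514094, plus strand) are shown because they hold motifs of the pathways named above, beside those of *Cxcl1* (chr14:17479322-17479571, minus strand), a neutrophil chemokine that was also measured. Both are read 5′ to 3′ from RefSeq, and capitals mark motif matches.
Ccl7: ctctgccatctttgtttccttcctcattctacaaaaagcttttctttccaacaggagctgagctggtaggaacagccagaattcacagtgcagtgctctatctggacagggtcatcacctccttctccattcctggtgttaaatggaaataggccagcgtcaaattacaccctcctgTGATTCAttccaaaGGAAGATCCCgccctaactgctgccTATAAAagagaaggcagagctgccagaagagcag
Cxcl1: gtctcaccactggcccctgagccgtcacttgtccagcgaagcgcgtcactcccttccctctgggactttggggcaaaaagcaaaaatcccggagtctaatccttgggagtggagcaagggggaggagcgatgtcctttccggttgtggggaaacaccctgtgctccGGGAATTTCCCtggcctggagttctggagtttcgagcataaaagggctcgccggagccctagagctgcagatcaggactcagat
Searched on both strands were TGANTCA for AP-1, TATAAA for the TATA box and the NF-kappaB consensus of 10 bases. In *Ccl7*, counted from -1 as the base before the start, the AP-1 match begins at -73, the NF-kappaB match at -59 and the TATA match at -34. The *Cxcl1* sequence has a pair of overlapping NF-kappaB matches, at -84 and -83, and no match to the other motifs. Of 33469 start regions of this length, 6.34% hold an AP-1 match, 6.33% an NF-kappaB match and 12.9% a TATA match. A match describes letters and does not show that a factor was bound.

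RNA was measured with a 3′ mRNA library kit, in which a transcript gives reads from its end, so that counts do not grow with transcript length. Whether reads of both genes are captured and assigned equally well was not tested. Library totals lay between 4920488 and 7207118 counts. At that depth 3 counts, taken as the floor for detection, correspond to 0.416 to 0.61 CPM, the count scaled to a common library total. These limits cover counting error only. Of 17 ASTR marker genes, 12 were paired with a name. Gap junction gene *Gja1* had 4789 ± 627 in gmASTRs versus 4366 ± 1241 CPM in wmASTRs (SD, n = 6), and *Vim* (2884 ± 236 versus 2353 ± 96.5 CPM), *Mfge8* (924 ± 275 versus 2737 ± 1329 CPM), *Id3* (721 ± 140 versus 498 ± 92.3 CPM) and *Apoe* (412 ± 249 versus 541 ± 143 CPM) were also abundant in both. Of the defining markers, *Gfap* had 0 counts in every gmASTR library, 1.39 to 2.58 CPM in 5 wmASTR libraries and 10.6 CPM in wmASTR replicate 4, and *Aqp4* stayed at or below 5.1 CPM. The other named ASTR markers were also low, with *Slc1a3* at 8.21 ± 4.03 versus 21.3 ± 8.46 CPM, *Aldoc* at 20.8 ± 7.26 versus 12.7 ± 4.77 CPM, *Fgfr3* at 3.75 ± 2.46 versus 1.8 ± 1.42 CPM and *Mlc1* at 0.128 ± 0.163 versus 4.02 ± 2.61 CPM, except *Gjb2* (110 ± 56.7 versus 18.9 ± 9.13 CPM). Replicate 4 of the wmASTRs stood apart from its group in 13 of the measures given here, *Gfap*, *Ccl7* and several markers of other cell types among them.

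*Ccl2* was low in gmASTRs. The libraries of gmASTR replicates 1 to 6 held 33, 30, 13, 0, 22 and 17 *Ccl2* counts, or 6.71, 5.2, 2.05, 0, 4.17 and 2.82 CPM. Those of wmASTR replicates 1 to 6 held 179, 118, 150, 551, 158 and 326 counts, or 33, 19.6, 20.8, 97, 22.8 and 60.8 CPM. Every wmASTR library was thus above every gmASTR library, which was the case for 2.2% of the 15478 genes tested (the reverse order held for 1.79%). The lowest wmASTR library, replicate 2, lay at 19.6 CPM and the highest gmASTR library, replicate 1, at 6.71 CPM, and their exact 95% counting intervals (16.2 to 23.5 and 4.62 to 9.42 CPM) did not overlap. In gmASTR replicate 4 no *Ccl2* read was counted, which allows 0.58 CPM by the floor of 3 counts and 0.713 CPM by the exact interval.

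The mean of *Ccl2* was 42.3 ± 30.9 CPM for wmASTRs, against 3.49 ± 2.38 CPM for gmASTRs (SD, n = 6). The log2 fold change (log2FC) of gmASTRs over wmASTRs was -3.66 (SE 0.50, FDR = 2.33e-05 in edgeR's quasi-likelihood test, with Benjamini-Hochberg adjustment over 15478 genes). On a linear scale this is 12.7-fold more transcript in wmASTRs, with 8.96 to 17.9-fold at 1 SE to either side. At an FDR under 0.05, 7.73% of all genes differed, 4.28% with more transcript in wmASTRs and 3.46% with more in gmASTRs. By size of log2FC towards wmASTRs, *Ccl2* was at place 598 of the 15478 genes, and by FDR at place 65. By mean CPM, 8957 genes lay above *Ccl2* in gmASTRs and 3422 in wmASTRs.

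**Figure D1:**
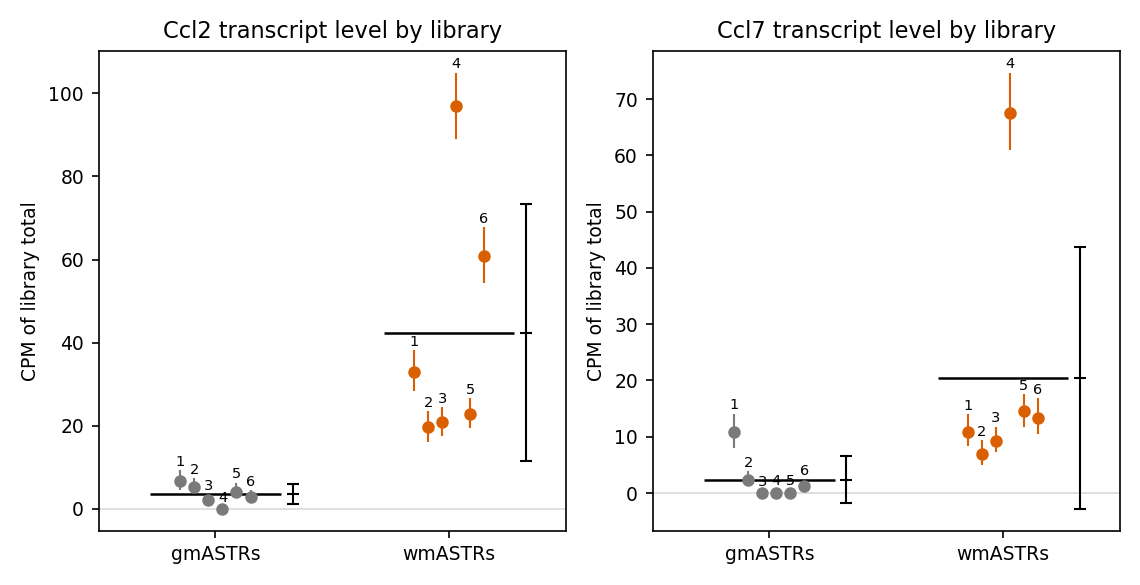
CPM of *Ccl2* (left) and *Ccl7* (right) in 6 gmASTR (grey) and 6 wmASTR (orange) libraries, numbered by replicate, with exact 95% counting intervals as coloured bars, the group mean as a black line and the SD as a black bar. *Ccl2* in wmASTRs begins at 19.6 CPM, above all gmASTRs, while *Ccl7* of gmASTR replicate 1 (10.8 CPM) lies among the wmASTRs.

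*Ccl7* was detected in fewer gmASTR libraries. Replicates 1 to 6 of the gmASTRs held 53, 13, 0, 0, 0 and 7 *Ccl7* counts, or 10.8, 2.25, 0, 0, 0 and 1.16 CPM. Replicates 1 to 6 of the wmASTRs held 59, 42, 67, 384, 100 and 72 counts, or 10.9, 6.98, 9.3, 67.6, 14.5 and 13.4 CPM. All 6 wmASTR libraries and 3 of 6 gmASTR libraries therefore had *Ccl7* reads, and for the other gmASTR libraries a count of 0 allows 0.472 to 0.58 CPM by the floor of 3 counts and 0.58 to 0.713 CPM by the exact interval. The groups overlapped, as gmASTR replicate 1 lay above wmASTR replicates 2 and 3. The other 5 gmASTR libraries were below all wmASTRs, and 4 wmASTR libraries were above all gmASTRs.

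The mean of *Ccl7* was 2.36 ± 4.22 in gmASTRs versus 20.4 ± 23.3 CPM in wmASTRs (SD, n = 6), and its median was 0.582 and 12.1 CPM. It was higher in wmASTRs, with a log2FC of -3.20 (SE 0.81, edgeR FDR = 0.0123), or 9.16-fold (5.23 to 16-fold at 1 SE). This call rested on wmASTR replicate 4, without which the log2FC was -2.28 (edgeR FDR = 0.115), and was not made by DESeq2's Wald test (log2FC -3.19, adjusted p = 0.0956). Without gmASTR replicate 1 the log2FC grew to -4.92 (edgeR FDR = 0.000227), and without both libraries, an alternative chosen after the values were seen, it was -4.02 (edgeR FDR = 0.00297).

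*Ccl2* did not depend on a single library in this way. When 1 library at a time was left out, its log2FC ran from -3.95 to -3.23, and its FDR in edgeR stayed at or below 0.000137. Without wmASTR replicate 4, *Ccl2* of the remaining wmASTRs was 31.4 ± 17.2 CPM (SD, n = 5), and without gmASTR replicate 4 that of the remaining gmASTRs was 4.19 ± 1.86 CPM. *Ccl7* of the wmASTRs without replicate 4 was 11 ± 3.04 CPM, against 20.4 CPM with it.

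**Figure D2:**
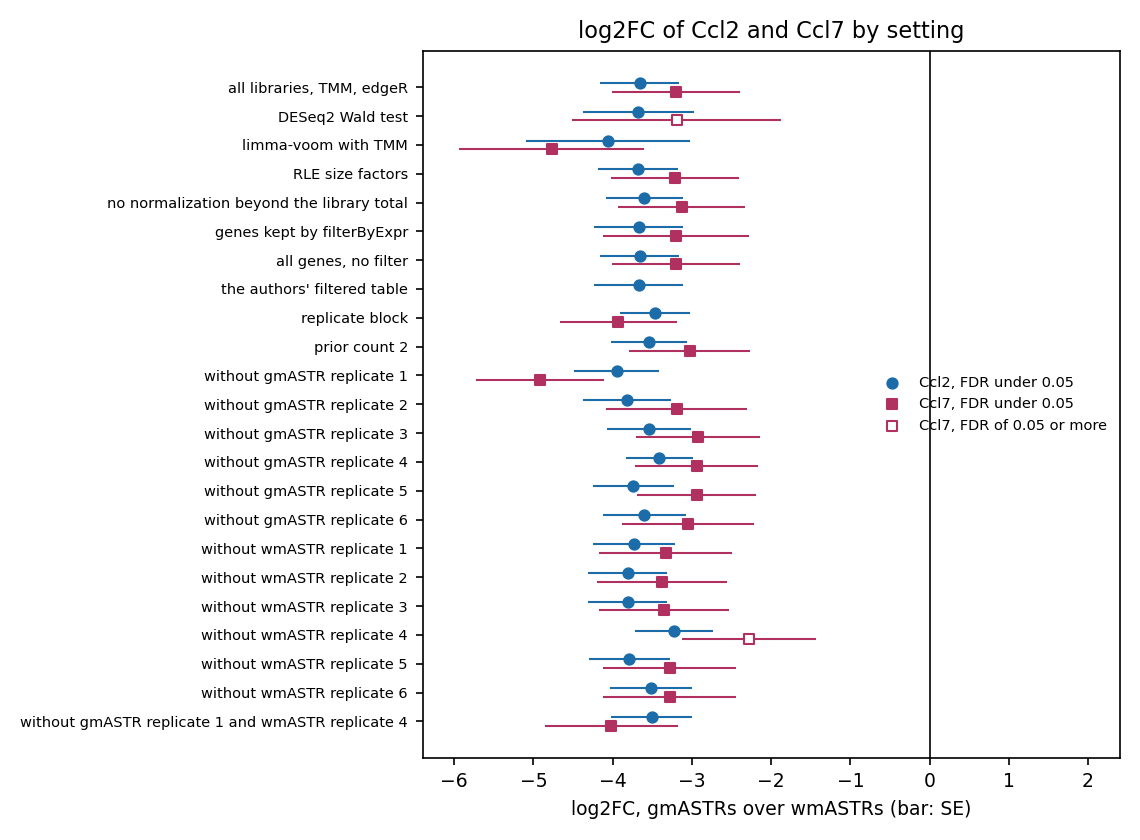
log2FC of *Ccl2* (circles) and *Ccl7* (squares), gmASTRs over wmASTRs, with SE as bars, for each test, scaling, gene filter and left-out library. Filled symbols have an FDR under 0.05. All values are below 0, and both open symbols belong to *Ccl7*, with DESeq2 (-3.19) and without wmASTR replicate 4 (-2.28).

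Both genes varied more between cultures of one group than genes of their level did. The biological coefficient of variation in edgeR was 0.552 for *Ccl2* and 0.967 for *Ccl7*, where the trend over all genes at the same abundance was 0.319 and 0.437. The SD of *Ccl2* was 73% of its mean in wmASTRs and 68.3% in gmASTRs. For *Ccl7* it was 114% in wmASTRs and 178% in gmASTRs. The wmASTR value rested on replicate 4, without which the SD was 3.04 CPM at a mean of 11 CPM. In gmASTRs without replicate 1, the SD of *Ccl7* (1.01 CPM) still exceeded its mean (0.683 CPM). How far these libraries raised the edgeR coefficient of *Ccl7* was not tested.

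How the pair was made up was then compared between groups. The share of *Ccl7* in the summed *Ccl2* and *Ccl7* counts was 24.8, 26.2, 30.9, 41.1, 38.8 and 18.1% in wmASTR replicates 1 to 6, and *Ccl2* thus had more reads than *Ccl7* in each of them. Replicate 6, the library with the lowest share (95% Wilson interval 14.6 to 22.2%), and replicate 4, that with the highest (38 to 44.3%), had intervals that did not overlap. This pair was picked after the values were seen, and the intervals take reads as independent. Among gmASTRs, replicate 1 was the only library of the 12 with more *Ccl7* than *Ccl2* reads, with a share of 61.6% (51.1 to 71.2%). Its *Ccl7* was 1.61 times its *Ccl2*. Replicates 2 and 6 had 30.2% (18.6 to 45.1%) and 29.2% (14.9 to 49.2%), and replicates 3 and 5 had 0 of 13 and 0 of 22 reads, which with Wilson intervals allows 22.8% and 14.9%. Replicate 4 had no read of either gene. The mean share was 24.2 ± 25.7% in gmASTRs (SD, n = 5) and 30 ± 8.75% in wmASTRs (SD, n = 6), a difference of -5.77 percentage points smaller than the spread among gmASTRs (p = 0.628 in a two-sided exact permutation test, 462 divisions). That test could have given a p as low as 0.00216, but 188 reads of both genes stand behind the gmASTR shares, and 2206 behind those of wmASTRs. The direction was not stable. Summed over libraries the share was 38.8% for gmASTRs and 32.8% for wmASTRs, a difference of 6.01 points, and the difference of means was 0.284 points without gmASTR replicate 3 or 5 and -15.1 points without gmASTR replicate 1.

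Across libraries the relation of both genes was taken within each group, since the groups differ in level. In wmASTRs, Pearson's r of log2(CPM + 1) was 0.842 (exact permutation test, p = 0.025, n = 6) and Spearman's rho was 0.829 (exact permutation p = 0.0583). After adjustment over the 6 relations computed here, these exact p-values were 0.075 and 0.133. Without replicates 4 and 6, the libraries farthest from the median of *Ccl2*, r fell to 0.423. It was 0.562 without replicate 4 alone and 0.951 without replicate 6 alone, so the relation rests on replicate 4. In gmASTRs, r was 0.659 (exact permutation p = 0.158, adjusted p = 0.158, n = 6) and rho 0.82 (exact permutation p = 0.0667, adjusted p = 0.133), and without replicates 1 and 4 r was 0.537. The genes come from the same library in each point, and gmASTR values are made of few reads.

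**Figure D3:**
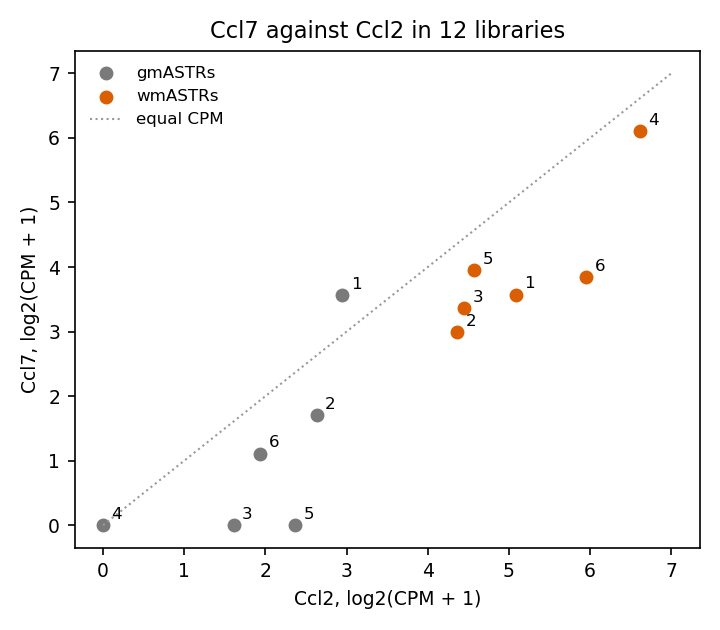
*Ccl7* against *Ccl2* as log2(CPM + 1), 1 point per library with its replicate number, gmASTRs in grey and wmASTRs in orange, and a dotted line of equal CPM. Only gmASTR replicate 1 (10.8 CPM of *Ccl7*, 6.71 CPM of *Ccl2*) lies above the line, and wmASTR replicate 4 is highest for both genes.

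Among the other chemokine ligands, *Cxcl1* and *Pf4* were higher in wmASTRs as well. Names were paired with an identifier for 6 of 37 listed ligands, and 4 of the 6 rose in wmASTRs and 0 in gmASTRs, with a median log2FC of -2.66 against -0.026 over all genes tested. *Ccl2*, *Ccl7*, *Cxcl1* and *Pf4* carry a name because the study listed them as higher in wmASTRs, so their direction is no independent evidence. Over all gene names, 29.4% of the 2095 named genes had an FDR under 0.05, and 4.34% of those without a name. The median log2FC of the named genes was 0.688, so names lean towards genes higher in gmASTRs. A positive log2FC of a named gene is thus no independent evidence either. The 23 listed chemokine receptors, CCR1, CCR2 and CCR3 among them, were not analysed here.

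*Cxcl1*, which attracts neutrophils and acts on oligodendrocyte progenitors, had 41.4, 44.9, 21.9, 57.9, 18.9 and 13.8 CPM in wmASTR replicates 1 to 6 and 1.83 to 10.2 CPM in gmASTRs. No gmASTR library reached a wmASTR library (log2FC -2.44, SE 0.38, edgeR FDR = 0.000109). The order of wmASTRs was not that of *Ccl2*, since replicate 6, the second highest for *Ccl2*, was the lowest for *Cxcl1*. *Pf4*, a platelet and macrophage chemokine, had 4.34 to 44.5 CPM in wmASTRs and 0.332 to 3.86 CPM in gmASTRs, also without overlap (log2FC -2.88, SE 0.59, edgeR FDR = 0.00203, but 0.0518 in limma-voom). *Ccl19*, a ligand for lymphocytes and dendritic cells, had 4.44 ± 3.23 in gmASTRs versus 2.77 ± 2.35 CPM in wmASTRs (SD, n = 6), and did not pass the test (log2FC 0.64, edgeR FDR = 0.664). *Ccl27*, a chemokine of the skin, had 8.68 ± 3.8 and 5.72 ± 3.49 CPM (log2FC 0.52, edgeR FDR = 0.546).

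**Figure D4:**
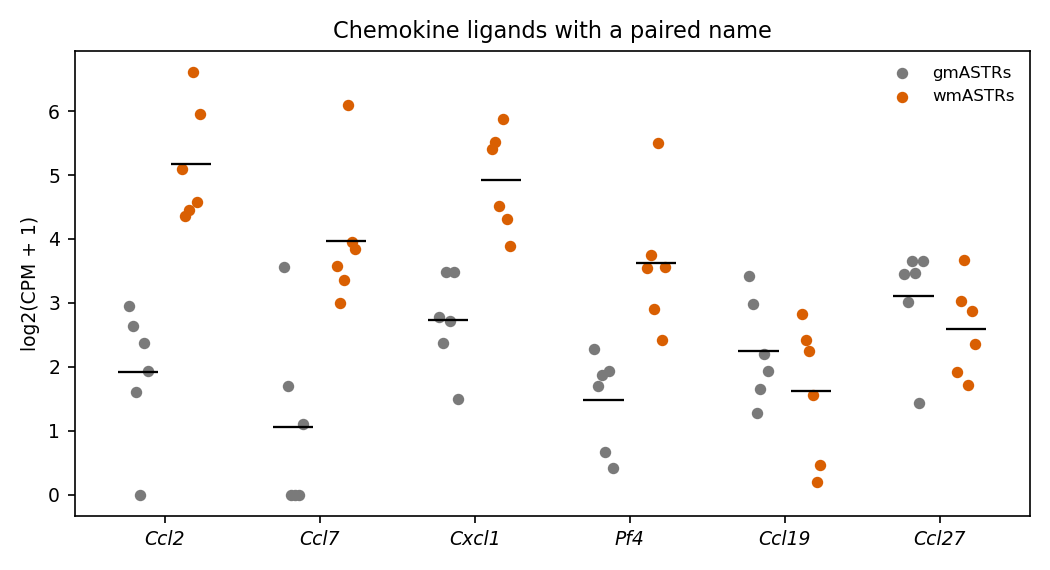
log2(CPM + 1) of the 6 chemokine ligands with a paired name, 1 point per library, gmASTRs in grey and wmASTRs in orange, with black lines for group means of the log values. *Ccl2*, *Cxcl1* and *Pf4* are separated without overlap, *Ccl7* overlaps in 1 gmASTR library, and *Ccl19* and *Ccl27* overlap broadly.

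Genes that lie upstream of chemokines or beside them were named in small part only, 19 of 144 listed with all ligands included, of which 9 rose in wmASTRs (4.28% of all genes tested) and 1 in gmASTRs (3.46%), where 29.4% of named genes were called in either direction. Of 25 upstream cytokines and receptors, 2 were named. *Il1rn*, which encodes the antagonist of the IL-1 receptor, had 66.3 ± 59.7 in gmASTRs versus 445 ± 125 CPM in wmASTRs without overlap (log2FC -2.80, SE 0.38, edgeR FDR = 2.43e-05). *Osmr*, the receptor of oncostatin M, had 1.68 ± 1.68 and 3.63 ± 1.16 CPM (log2FC -1.14, edgeR FDR = 0.434). *Traf6*, which relays IL-1 and Toll-like receptor signals to NF-kappaB, was the named gene of 17 in that pathway (log2FC 0.90, edgeR FDR = 0.431), and *Atf3* that of 8 AP-1 and related factors (log2FC 0.92, edgeR FDR = 0.349). Neither passed the test.

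Of 16 other inflammatory targets of NF-kappaB 5 were named, of which 2 rose in wmASTRs and 0 in gmASTRs, a share near the 29.4% of all named genes. The prostaglandin synthase gene *Ptgs2* had 22.9 ± 7.55 in gmASTRs versus 40.7 ± 15.2 CPM in wmASTRs (log2FC -0.89, SE 0.25, edgeR FDR = 0.025), but was not called without gmASTR replicate 4 (0.0559), gmASTR replicate 6 (0.0604), wmASTR replicate 4 (0.105) or wmASTR replicate 6 (0.0662), nor by limma-voom (0.0521). *Lcn2*, an iron-binding protein of reactive ASTRs, had at most 12 counts in a gmASTR library and 1.33 to 21.8 CPM in wmASTRs (log2FC -3.35, SE 1.05, edgeR FDR = 0.0492), and lost its call in 7 of 12 fits with a library left out, up to an FDR of 0.258 without wmASTR replicate 4. *Vcam1* (log2FC 0.76, edgeR FDR = 0.343), *Traf1* (1.66, FDR = 0.48) and *Ptx3* (1.09, FDR = 0.368) had higher means in gmASTRs but did not pass the test. The median log2FC of all named genes was 0.688, so their direction is no independent evidence.

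Of 20 matrix genes that cleave chemokines, inhibit such cleavage or hold chemokines at the cell surface, 4 were named. *Mmp12*, an elastase of macrophages, had 8.78 ± 8.29 in gmASTRs versus 47.3 ± 25.8 CPM in wmASTRs (log2FC -2.48, SE 0.53, edgeR FDR = 0.00288). *Timp1*, an inhibitor of metalloproteinases, was also higher in wmASTRs, with 179 ± 38.4 and 268 ± 35.4 CPM (log2FC -0.65, edgeR FDR = 0.00369). *Sdc4*, a heparan sulfate proteoglycan of the cell surface, was lower in wmASTRs, with 1254 ± 195 in gmASTRs versus 722 ± 163 CPM in wmASTRs (log2FC 0.73, SE 0.13, edgeR FDR = 0.000692). *Gpc6*, of the same kind, did not pass the test (log2FC 0.60, edgeR FDR = 0.344).

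Most named markers of microglia and macrophages were higher in wmASTRs, as were *Ccl2* and *Ccl7*. Of 24 genes of microglia and macrophages, which also make both chemokines, 13 were named. Of the 13, 11 were higher in wmASTRs, and since 11 are also in the study's own list of such genes this count, beside 4.28% of all genes tested and 29.4% of named genes called in either direction, is no independent evidence. None was at 0 in all libraries of a group. The most abundant were *C1qa*, of the complement system (21.3 ± 15.7 CPM in gmASTRs, 99 ± 56.3 CPM in wmASTRs), the lysosomal gene *Laptm5* (8.42 ± 5.47 and 44.5 ± 24.4 CPM) and the lysozyme gene *Lyz2* (7.3 ± 5.22 and 34.3 ± 26.4 CPM). Their summed level was 105, 73.6, 33, 29, 62.3 and 25.8 CPM in gmASTR replicates 1 to 6 and 229, 200, 190, 597, 164 and 220 CPM in wmASTR replicates 1 to 6. Replicate 4 of the wmASTRs and replicate 1 of the gmASTRs, the libraries with the most *Ccl7* of their group, also had the highest marker sum of their group, and 12 of the 13 markers were highest in wmASTR replicate 4.

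Per 100 CPM of that sum, *Ccl2* had 0 to 11 CPM in gmASTRs (median 6.54) and 9.79 to 27.6 CPM in wmASTRs (median 14.2), and *Ccl7* had 0 to 10.3 CPM (median 1.53) and 3.49 to 11.3 CPM (median 5.49). Within gmASTRs the sum and *Ccl2* had r = 0.762 (exact permutation p = 0.0458, adjusted p = 0.0917, n = 6), rho = 0.829 (exact permutation p = 0.0583, adjusted p = 0.133) and r = 0.871 without replicates 1 and 4. Within wmASTRs r was 0.842 (exact permutation p = 0.0208, adjusted p = 0.075, n = 6), rho 0.714 (exact permutation p = 0.136, adjusted p = 0.204) and r 0.599 without replicates 4 and 6. For *Ccl7*, r was 0.704 in gmASTRs (exact permutation p = 0.1, adjusted p = 0.13, n = 6) with rho 0.577 (exact permutation p = 0.25, adjusted p = 0.3), and 0.903 in wmASTRs (exact permutation p = 0.104, adjusted p = 0.13, n = 6) with rho 0.314 (exact permutation p = 0.564, adjusted p = 0.564). Without the 2 libraries farthest from the median of *Ccl7*, these turned to -0.527 and -0.303. The part of such cells in the difference between gmASTRs and wmASTRs was not tested, and in bulk RNA more cells of a type and more transcript per cell cannot be told apart.

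**Figure D5:**
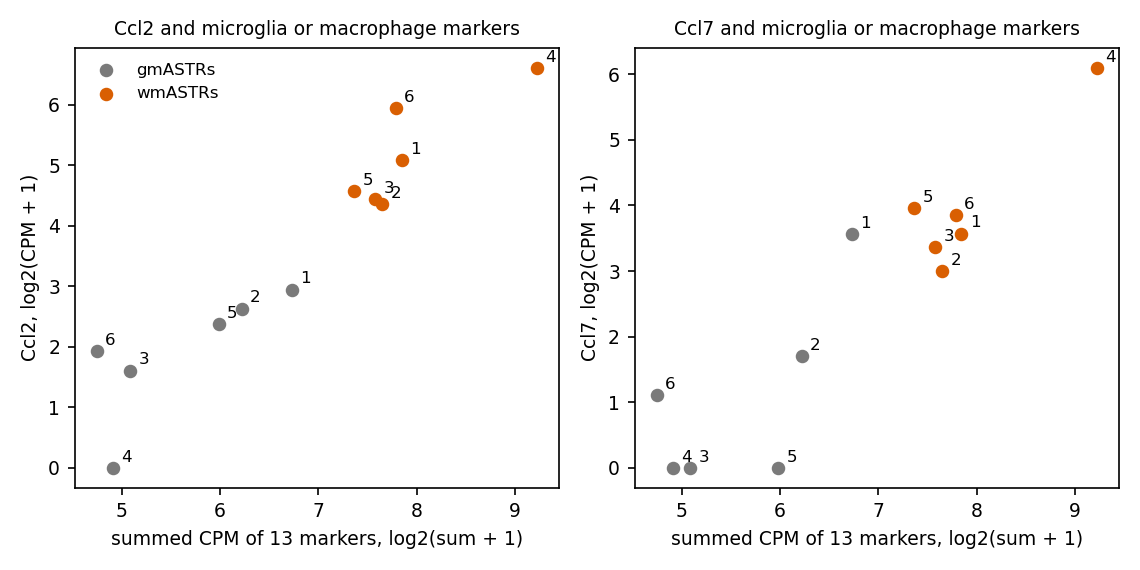
*Ccl2* (left) and *Ccl7* (right) as log2(CPM + 1) against the log2 of the summed CPM (plus 1) of 13 microglia and macrophage markers, 1 numbered point per library. The sum is 25.8 to 105 CPM in gmASTRs (grey) and 164 to 597 CPM in wmASTRs (orange), with wmASTR replicate 4 at the upper end for both genes.

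Further marker lists were named for few genes. Of 12 endothelial markers 3 were named, of which *Esam* was higher in wmASTRs (8.87 ± 3.55 and 107 ± 119 CPM, edgeR FDR = 5.89e-05) and *Egfl7* (edgeR FDR = 0.594) and *Tek* (edgeR FDR = 0.736) did not pass the test. Both named markers of 11 for pericytes and smooth muscle, *Myh11* (96 ± 55.1 and 489 ± 127 CPM, edgeR FDR = 5.28e-06) and *Des* (2.38 ± 2.58 and 56.4 ± 79.6 CPM, edgeR FDR = 0.000169), were higher in wmASTRs. Of 12 leptomeningeal markers 6 were named and 3 were higher in gmASTRs, with *Cldn11* at 1842 ± 1433 and 27.5 ± 27.9 CPM, *Foxc1* at 442 ± 117 and 270 ± 48.3 CPM and *Alcam* at 165 ± 55.2 and 64.9 ± 14.9 CPM. Of the oligodendrocyte markers, *Mbp* (0.713 ± 1.29 and 16.5 ± 8.72 CPM, edgeR FDR = 0.000158) and *Mag* (edgeR FDR = 0.00523) were higher in wmASTRs and *Myrf* (edgeR FDR = 0.0159) in gmASTRs. The neuronal markers *Tubb3* and *Syt1*, 2 of 7, were higher in wmASTRs and in gmASTRs, respectively, and *Ttr* of the choroid plexus, 1 of 8, was higher in wmASTRs. Of the 12 named ASTR markers, 5 were higher in wmASTRs and 2 in gmASTRs. These counts stand beside 7.73% of all genes and 29.4% of named genes called in either direction. The named genes had a median log2FC of 0.688, so markers higher in gmASTRs, the leptomeningeal ones included, are no independent evidence. The part of these cell types in the chemokine levels was not tested.

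The genes most like each chemokine across cultures were taken by Pearson's r of log2(CPM + 1) after each group was centred on its mean, over 12 libraries and 8401 genes with a mean of at least 5 CPM. The points share library and depth, and r is given as a description. For *Ccl2* the 5 most alike had r of 0.921 to 0.96, and 4 of them had no name here. The named gene was *C1qa*, at place 4, with r of 0.929 over both groups (0.986 within gmASTRs, 0.911 within wmASTRs), and at least 0.867 with any library left out. *Ccl7* itself was at place 106, with r of 0.732.

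For *Ccl7* the 5 most alike had r of 0.857 to 0.888. Of these the gene with a name was *Egfl7*, a secreted protein of endothelial cells, at place 5 (r = 0.857). Further genes with a name, given since most of the 5 had none and thus chosen after values were seen, were for *Ccl2* the BMP antagonist *Grem1* (place 6, r = 0.916, 363 in gmASTRs versus 3385 CPM in wmASTRs) and the TGF-beta binding ECM gene *Ltbp1* (place 12, r = 0.871). For *Ccl7* they were the macrophage gene *Cd68* (place 6, r = 0.852), the ECM gene *Tnc* (place 9, r = 0.836) and *Des* of muscle filaments (place 11, r = 0.823). *Ccl2* was at place 57 in the order of *Ccl7*.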

How the data were processed

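RNA of 6 gmASTR and 6 wmASTR cultures was measured. The authors made 3′ libraries, used HiSat (0.1.5) for alignment, samtools (1.2) for sorting and HTSeq (0.6.1p1), without strand, to assign reads to Ensembl genes. The genome build is given differently in the sources. The deposited values are unnormalized read counts of 17941 genes, from which a second table keeps 9394, those that reach 2 counts in 11 or more libraries. *Ccl2* is in that table and *Ccl7* is not. Use of molecular identifiers is not stated. Reads of paralogs or overlapping genes may be misassigned, and *Ccl2* and *Ccl7* are paralogs.

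CPM were computed from the library totals. The 15478 genes with at least 1 count were fitted with edgeR (4.0.16) in R (4.3.3), with TMM and a term for the region alone, at an FDR threshold of 0.05. SE is the log2FC over the root of the F statistic. On simulated data it recovered 44% of 50 genes with an absolute log2FC of 1, 56% at 2, 94% at 3 and 98% at 4. There were 19 false calls among 15028 genes. A gene that did not pass the test may thus still differ. Alternatives used DESeq2 (1.42.0) and limma (3.58.1), other scalings and filters, the replicate number as a block, and left-out libraries. Exact permutation tests are two-sided and were made with Python (3.11.15) and scipy (1.17.1).

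Names came from the study's additional file, which gives 2010 with the identifier. A further 85 were matched through equal values in all 12 libraries (within 0.3 counts or 0.2%). Its fold changes and p-values were not used. The members and gene lists were chosen with earlier results of these data known. Genes named are *Ccl2* and *Ccl7*, pathway genes with an FDR under 0.05 (up to 6 per list), up to 3 abundant genes per marker list and the 5 genes most like each chemokine. Other genes are named to complete a list of few named members, after values were seen. Some listed genes are not reported here.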

Additional observations from a re-analysis of the deposited data

Results flagged for a closer look

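Of 107 groups of libraries examined, 21 had a library far from the others of its group. This was judged by the gap to the nearest library over the range. The cut-off is set for about 1 in 20 groups of normally distributed values. How often skewed or low counts pass it by chance was not measured. Of the 21, 13 were in wmASTR replicate 4 and 3 in gmASTR replicate 1. The measures share libraries, and some share genes.

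*Ccl7* had 10.8 CPM in gmASTR replicate 1, where the other gmASTRs had 0 to 2.25 CPM, and 67.6 CPM in wmASTR replicate 4, where the other wmASTRs had 6.98 to 14.5 CPM. In the same wmASTR library the summed microglia and macrophage markers stood at 597 CPM against 164 to 229 CPM. Among them were *C1qa* (212 against 65 to 90.8 CPM), *Laptm5* (92.2 against 24.7 to 46.8 CPM), *Lyz2* (87.7 against 19.4 to 28.9 CPM) and *Pf4* (44.5 against 4.34 to 12.5 CPM). Also high there were *Lcn2* (21.8 against 1.33 to 6.53 CPM), *Gfap* (10.6 against 1.39 to 2.58 CPM), *Egfl7* (21.5 against 6.26 to 10.5 CPM), *Myh11* (729 against 361 to 492 CPM), *Des* (214 against 3.99 to 60.4 CPM), *Tubb3* (37 against 7.91 to 17.5 CPM) and *Tnc* (1168 against 290 to 518 CPM).

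In gmASTR replicate 1, *Cd68* had 6.5 CPM against 0 to 2.25 CPM and *Mbp* 3.25 CPM against 0 to 0.866 CPM. In gmASTR replicate 5, *Sdc4* had 885 CPM against 1241 to 1431 CPM and *Apoe* 906 CPM against 247 to 394 CPM. *Mag* had 0.498 CPM in gmASTR replicate 6 against 0 to 0.157 CPM, *Syt1* 11.2 CPM in wmASTR replicate 3 against 0.559 to 4.16 CPM, and *Ttr* 376 CPM in wmASTR replicate 1 against 4.65 to 88.9 CPM. *Ccl2* was not apart in any library by this measure.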

How the results depend on the processing

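*Ccl2* kept its direction and its call under all 21 alternatives, and *Ccl7* its direction under 20, of which 18 kept its call. The exceptions for *Ccl7* were DESeq2 (log2FC -3.19) and the fit without wmASTR replicate 4. With each library left out, log2FC was -3.95 to -3.23 for *Ccl2* and -4.92 to -2.28 for *Ccl7*, the genes called numbered 973 to 1626 (1197 with all libraries), and the named pathway genes called 7 to 10 (10 with all). The difference in *Ccl7* share was -15.1 to 0.284 percentage points, its sign turning without gmASTR replicate 3 or 5 (0.284 each), and 6.01 for summed counts. Pearson's r of *Ccl2* and *Ccl7* was 0.552 to 0.81 in gmASTRs and 0.562 to 0.951 in wmASTRs, and 0.423 in wmASTRs without the 2 libraries farthest from the median of *Ccl2*, with fewer libraries in each. The filtered table gives no value for *Ccl7*. The share has no value for gmASTR replicate 4.

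Each animal gave both kinds of culture, but whether the replicate number marks the animal is not stated. Libraries with the same number did not deviate together (correlations -0.0823 to 0.0434, and 1 of 6 numbers matched best with itself). The main fit therefore has no pairing. With the replicate block, log2FC was -3.47 for *Ccl2* (edgeR FDR = 1.8e-07) and -3.93 for *Ccl7* (edgeR FDR = 0.00016). In that setting 1301 genes were called, and the difference in share was -3.55 percentage points (exact permutation p = 0.938). Depth limits *Ccl7* in gmASTRs, where 73 counts stand in 3 libraries.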
